A study of Monomorium pharaonis with 23 samples.

Results

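Osi6 (LOC105828891) and the 50 genes whose levels followed it most closely across head libraries of the pharaoh ant, Monomorium pharaonis, make up a set of 51 of the 12648 genes measured. They were chosen by Pearson's r with Osi6 on the log2(RPKM + 1) scale over all 23 libraries. RPKM is a read number divided by the length of the gene in kilobases and by the reads of its library in units of 1000000. Only genes that reached 5 RPKM in some library were open to the choice, and only those in which the forager was higher in more than 0.10 and less than 0.90 of the 126 forager and nurse pairs. These limits left 8108 genes. Every library went into the choice, so r and the levels below describe the set and were not tested.

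The libraries were made from polyadenylated RNA of worker heads with an unstranded kit, 9 from workers taken while foraging and 14 from workers taken while nursing larvae. Both groups came from colonies with 10 queens, 300 to 400 workers and 300 to 400 brood, held at 27 degrees C and 50% humidity in 12 hours of light and 12 of dark. Neither the age of the workers, the number of heads in a library nor its colony is given in the sources used here. Read totals recovered from the RPKM values were 8.15 ± 3.96 M in foragers (SD, n = 9, 3.68 to 15.0 M) and 15.4 ± 7.52 M in nurses (SD, n = 14, 8.31 to 31.3 M), where M stands for 1000000. Identifiers other than Osi6 carry no gene name here, so the head could not be checked against marker genes, and no function is given to any other member.

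Osiris genes encode a family of insect proteins with a signal peptide, most of which lie side by side in one chromosomal cluster that is conserved between insect orders. In the fruit fly they are expressed mainly in cells that secrete cuticle, such as epidermis and trachea, while new cuticle is being laid down. Cuticle is the chitin and protein layer that covers the insect body. An adult ant emerges from the pupa with a pale and soft cuticle that darkens and hardens afterwards.

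Osi6 was low in every forager and in most nurses, and very high in a few nurse libraries. In foragers its lowest level was 0.32 RPKM, its median 1.12 and its highest 6.46. In nurses the lowest was 0.23 RPKM, the median 3.32 and the highest 1697. The 3 highest libraries were nurse 13 at 1697 RPKM, nurse 4 at 305 and nurse 10 at 72.6. The next was nurse 3 at 14.1 RPKM, and the median of the 20 libraries other than the top 3 was 1.78. The groups overlapped, since 6 nurses lay within the range of the foragers, 3 below it and 5 above it. In nurse 13 Osi6 was the gene with rank 11 of all genes by RPKM and took 0.497% of the summed RPKM. The values rested on 22053 reads in nurse 13, 3904 in nurse 4 and 1257 in nurse 10, against 3 to 81 reads in single foragers.

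The 3 genes after Osi6 in the annotated gene order were high in the same libraries, and the 2 genes before it were not. LOC105828890, LOC105828892 and LOC105828889 follow Osi6 directly, in that order. LOC105828890 was at 115 RPKM in nurse 13, 18.1 in nurse 4 and 2.17 in nurse 10, and at most 1.97 in the other 20 libraries. LOC105828892 was at 129 RPKM in nurse 13, 29.8 in nurse 4 and 2.57 in nurse 10, and at most 1.5 elsewhere. LOC105828889 was at 128 RPKM in nurse 13, 31.7 in nurse 4 and 11.2 in nurse 10, and at most 3.71 elsewhere. All 3 had the same order of nurse 13, nurse 4 and nurse 10 as Osi6, and their r with Osi6 was 0.939, 0.908 and 0.972. Their levels per length were below that of Osi6 in each of these libraries. LOC105828894, directly before Osi6, was at 0.00 RPKM in nurse 13 and at most 0.623 in any library (r = 0.016). LOC105828893, the gene before that, was highest in forager 4 at 1.84 RPKM and was at 1.18 in nurse 13 (r = 0.416). Whether reads of Osi6 were counted to its neighbours was not tested here.

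Members of the set recurred along a longer stretch around Osi6. The stretch runs from LOC105828542, 4 places before Osi6, to LOC105839927, 15 places after it, and holds 20 annotated genes. Of these, 14 are in the table and 7 passed the limits of the choice. All 7 were members, and members are 0.629% of the genes open to the choice. The stretch was drawn to begin and end at a member, so nothing is read from this contrast. LOC105828542 was at 14.1 RPKM in nurse 13 and at most 1.6 in the 20 libraries without nurses 13, 4 and 10. LOC105828936 was also at 14.1 RPKM in nurse 13 and at most 1.80 in those libraries. In nurse 4 these 2 genes reached only 1.27 and 2.14 RPKM. LOC105839927 was high in 4 libraries, at 12.2 RPKM in nurse 13, 10.8 in nurse 8, 10.6 in nurse 4 and 5.51 in nurse 10.

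The other 7 genes of the stretch stayed under 5 RPKM and so could not be chosen. Among them, 4 also had an r with Osi6 above 0.5. LOC105828537 reached 3.75 RPKM in nurse 13 (r = 0.835) and LOC105828939 3.14 in nurse 4 (r = 0.812). LOC105839926 reached 3.21 RPKM in nurse 4 (r = 0.747), and LOC105828888 0.49 in nurse 13 (r = 0.578). Over the 20 libraries without nurses 13, 4 and 10, r was 0.552 for LOC105828537 and 0.191 for LOC105828939. It was -0.192 for LOC105839926 and -0.055 for LOC105828888. The share of all genes under 5 RPKM with an r above 0.5 is not given here. The remaining 3 were the 2 genes before Osi6 and LOC105828934, which was highest in forager 1 at 1.81 RPKM (r = 0.034). Within 5 places beyond either end of the stretch, 5 genes are in the table, and their r with Osi6 ran from -0.216 to 0.156. The bounds of the stretch were set by its members after their values were seen. The annotated spans of the 7 members here overlap no other gene of the table.

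**Figure D1:**
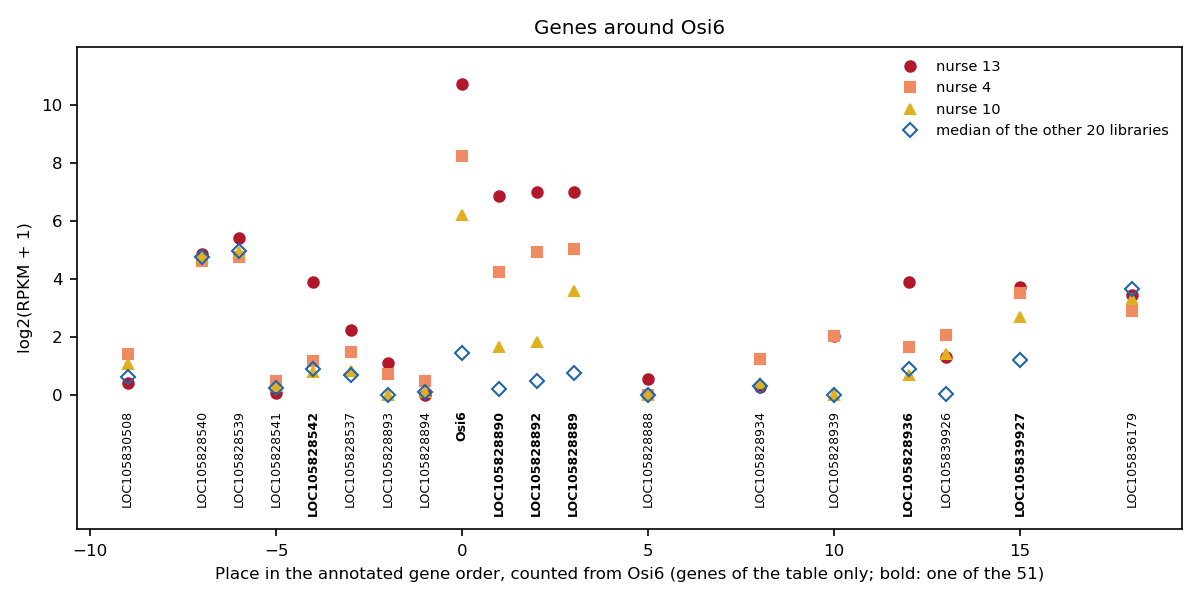
Level on the log2(RPKM + 1) scale (y axis) of the genes around Osi6, by place in the annotated gene order (x axis, not to scale in bases), in nurse 13, nurse 4 and nurse 10 and as the median of the other 20 libraries. Osi6 and the 3 genes after it stand highest in nurse 13, and the 5 genes beyond LOC105828542 and LOC105839927 have an r with Osi6 between -0.216 and 0.156.

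Among members not placed in the stretch, several of the genes most like Osi6 were low in the other 20 libraries. LOC105840189 was not found in the annotation and LOC105828937 lies on sequence without a chromosome, so neither could be placed relative to Osi6. LOC105839106 (r = 0.936) was at 77.9 RPKM in nurse 13, 10.2 in nurse 4 and 3.26 in nurse 10, and at most 1.42 in the other 20 libraries. LOC105840189 (r = 0.909) was at 104 RPKM in nurse 13, 10.8 in nurse 4 and 3.83 in nurse 10, and at most 1.74 elsewhere. Both genes are short, at 564 and 588 bases of counted length, and both followed the order of Osi6 in the 3 libraries. LOC105838398 (r = 0.895) was raised more evenly, at 16.3 RPKM in nurse 13, 13.9 in nurse 4 and 8.60 in nurse 10, against at most 1.04 elsewhere. LOC105839362 (r = 0.898) reached 6.40 RPKM in nurse 13 and LOC105838832 (r = 0.818) 5.99, each with the next values in nurse 4 and nurse 10. LOC105836469 (r = 0.817) was expressed in every library, from 1.54 to 10.0 RPKM with a median of 2.58, and lay 1.62 log2 units above its median in nurse 13 but 0.54 in nurse 4 and 0.39 in nurse 10. LOC105828937 (r = 0.816) differed in that forager 9, at 11.6 RPKM, lay between nurse 4 at 20.9 and nurse 13 at 11.1, while the median forager was at 0.513.

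The likeness to Osi6 fell off quickly down the list. Of the 50 genes, 5 had an r of at least 0.9, 11 of at least 0.8, 9 from 0.7 to 0.8 and 30 below 0.7. Their median r was 0.682, where the other genes open to the choice had a median of -0.017. The last genes inside were LOC105836404 (r = 0.589) and LOC105832850 (r = 0.588), and the first outside were LOC105830102 (r = 0.578) and LOC105835662 (r = 0.575). There was thus no gap in r at the limit of 50 genes. A further 47 genes with an r above the lowest of the set were left out because they never reached 5 RPKM.

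All 51 genes had their highest value in a nurse, and 4 nurse libraries shared these out. Nurse 13 was highest for 25 genes, nurse 4 for 12, nurse 10 for 8 and nurse 3 for 6. Among all 8108 genes open to the choice, a nurse was highest in 40.7%, and nurse 13, nurse 4 or nurse 10 in 10.1%. In nurse 13, 36 of the 51 genes lay at least 1 log2 unit above their own median over the 23 libraries, against 2.18% of the 8108. In nurse 4 the count was 37 (3.96% of the 8108), in nurse 10 it was 32 (3.0%) and in nurse 3 it was 19 (2.5%). The choice used these same values, so nothing is read from the contrast. The other 19 libraries had 0 to 10 such members each, with the highest count in nurse 8, and forager 9 had 8 (1.21%).

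The summed level of the 51 genes was 3098 RPKM in nurse 13, of which 1400 came from the 50 genes other than Osi6. It was 1610 RPKM in nurse 4, 1280 in nurse 3 and 624 in nurse 10, and 101 to 273 in the other 19 libraries. As a median over the 51 genes, nurse 13 lay 2.28 log2 units above the genes' own medians, nurse 4 2.19 and nurse 10 1.34, and nurse 3 0.47. Over all 8108 genes the same measure was 0.05 in nurse 13, -0.18 in nurse 4, 0.00 in nurse 10 and 0.05 in nurse 3. Nurse 13 and nurse 4 were among the shallower nurses, at 8.99 and 8.86 M reads, while nurse 10 had 12.0 M and nurse 3 had 30.0 M. Their summed RPKM over all genes was 341645 in nurse 13, 282271 in nurse 4 and 309292 in nurse 10, within the range of 260684 to 398301 over all libraries. The part of depth in these levels was not tested.

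**Figure D2:**
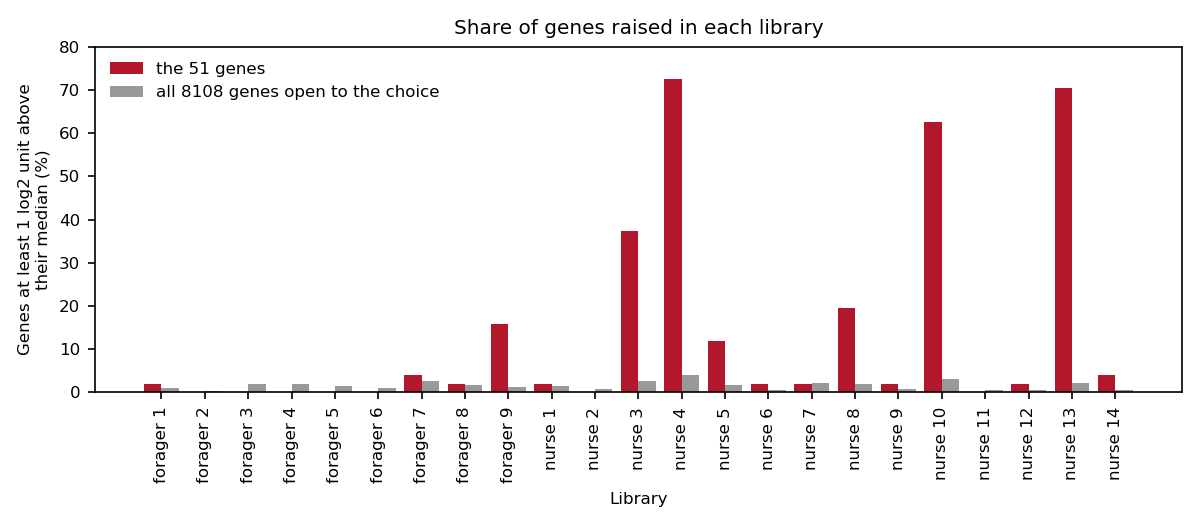
Percent of genes at least 1 log2 unit above their own median over the 23 libraries (y axis) in each library (x axis), for the 51 genes (red) and all 8108 genes open to the choice (grey). The red bars exceed 60% in nurses 13, 4 and 10 and reach 37.3% in nurse 3, and the grey bars stay at or below 3.96%.

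The members did not all rise in the same libraries. In 21 genes all of nurse 13, nurse 4 and nurse 10 lay at least 1 log2 unit above the gene's median. Another 7 were that high in nurse 13 but not in nurse 4 or nurse 10, and 9 in nurse 4 and nurse 10 but not in nurse 13. The 3 highest libraries of a gene were nurse 13, nurse 4 and nurse 10, in any order, for 19 of the 51 genes and for 0.271% of the 8108. These are also the 3 highest libraries of Osi6, so the choice favours such genes and nothing is read from the contrast. A single library held all the raised values in 8 genes, nurse 13 in 7 of them and nurse 10 in the other. Between members the median r was 0.598 and the lowest was -0.015.

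Among the 25 genes highest in nurse 13, nurse 4 was the second highest library for 15. LOC105836558 had the highest level of these after Osi6, at 181 RPKM in nurse 13, with nurse 12 next at 37.4. It was also expressed in every library, with 1.64 to 15.4 RPKM in foragers (median 9.40) and 3.64 to 181 in nurses (median 18). LOC105828481 was at 54.6 RPKM in nurse 13 and 9.15 in nurse 4. LOC105831081 was at 17.3 RPKM in nurse 13, with forager 4 next at 1.71. LOC105836469, at 10.0 RPKM in nurse 13, was at most 4.19 in any other library.

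The genes highest in nurse 4 or nurse 10 were mostly high in both. Nurse 10 was second for 7 of the 12 genes highest in nurse 4, and nurse 4 was second for 7 of the 8 highest in nurse 10. LOC105838808 was at 26.7 RPKM in nurse 10, 15.3 in nurse 4 and 1.16 in nurse 13. LOC105838826 was at 11.6 RPKM in nurse 4, 11.2 in nurse 10 and 0.819 in nurse 13. For both genes nurse 13, the highest library for Osi6, was far below nurse 4 and nurse 10. LOC105829557 was at 36.2 RPKM in nurse 10, 12.9 in nurse 4 and 2.71 in nurse 13. LOC105837238 was at 24.1 RPKM in nurse 4, 19.9 in nurse 10 and 11.6 in nurse 13.

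LOC105838808 and LOC105838826 are neighbours in the annotation with 1 gene between them, and LOC105838832 directly precedes LOC105838808. The gene between, LOC105838801, is no member and reached 1.07 RPKM, in nurse 10. Along these places the order of the 3 libraries changed, since LOC105838832 was at 5.99 RPKM in nurse 13, 5.78 in nurse 4 and 4.20 in nurse 10. Away from Osi6, 7 members lay within 4 places of another member. LOC105838395 and LOC105838398 are direct neighbours, and the annotated spans of both overlap that of LOC105834520. The spans of LOC105836469, LOC105837238, LOC105833698, LOC105837582 and LOC105839476 also overlap another gene of the table. Whether exons overlap was not tested, so the values of these 7 genes may hold reads of the other gene. LOC105836404 and LOC105834828 lie 4 places apart.

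The 6 genes highest in nurse 3 were mostly high in nurse 4 too, which was second in 4 of them. LOC105838395 was at 463 RPKM in nurse 3, 231 in nurse 4, 81.0 in nurse 13 and 65.9 in nurse 10. It was also high in forager 7, at 52.7 RPKM. LOC105830975 was at 280 RPKM in both nurse 3 and nurse 4, 38.1 in nurse 13 and 19.1 in nurse 10. LOC105830954 was at 137 RPKM in nurse 3, 51.6 in nurse 4, 33 in nurse 13 and 20.2 in nurse 10. Among the genes highest in nurse 4, LOC105836404 was at 129 RPKM in nurse 4 and 72.4 in nurse 3, against 8.07 in nurse 13, and LOC105834828 at 49.1 and 39.9 against 3.52. In these 5 genes nurse 3 and nurse 4 stood above nurse 13, while Osi6 was only 14.1 RPKM in nurse 3. Between the last 2 genes lies LOC105840348, which is no member (r = 0.462) and was at 8523 RPKM in nurse 4 and 2025 in nurse 3.

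**Figure D3:**
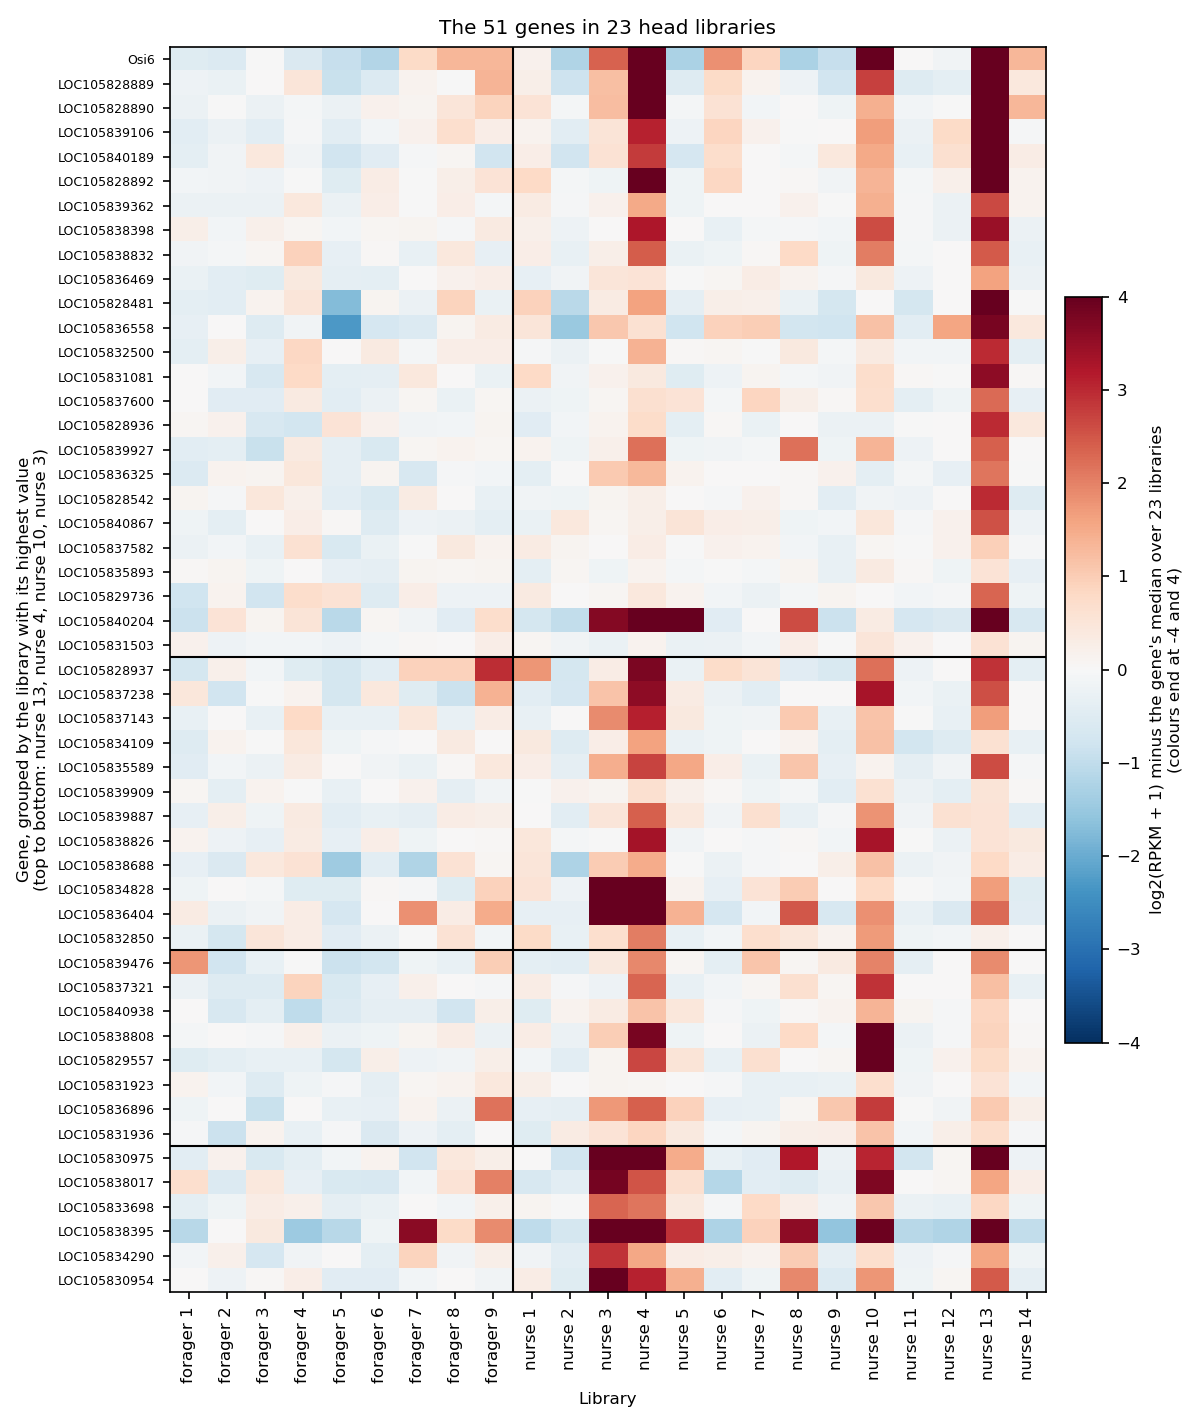
Difference of log2(RPKM + 1) from the gene's median over the 23 libraries (colour, ending at -4 and 4) for the 51 genes (rows, grouped by the library with the highest value) in 9 forager and 14 nurse libraries (columns). Dark columns stand at nurse 13, nurse 4 and nurse 10, and the bottom group of 6 genes is highest in nurse 3.

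At the other end, 5 members varied little. None of nurse 13, nurse 4 and nurse 10 lay 1 log2 unit above the median in LOC105839909, LOC105837582, LOC105831923, LOC105835893 and LOC105831503. Their highest value was 1.49 to 2.28 times their median. LOC105831503, for example, ran from 16.2 to 29.8 RPKM with a median of 19.6, and its 2 highest libraries were nurse 13 at 29.8 and nurse 10 at 27.9. A high r thus did not mean a large difference in level for every member.

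The tie to Osi6 rested on the 3 highest libraries for most of the set. Over the 20 libraries without nurses 13, 4 and 10, the median r of the 50 genes with Osi6 was 0.250, and that of the other genes open to the choice was 0.042. It stayed above 0.5 for 8 of the 50 genes, against 0.782% of the other genes open to the choice, and was at or below 0 for 6. The genes with the highest values were LOC105828889 (r = 0.815) and LOC105828890 (r = 0.765), both neighbours of Osi6, then LOC105836558 (r = 0.680) and LOC105839106 (r = 0.675). LOC105838398, at 0.895 over all libraries, was at 0.006 without the 3. By ranks over all 23 libraries, the median Spearman's rho was 0.425, against -0.022 for the other genes open to the choice. The libraries are the same in every r, and low values rest on few reads, so these are descriptions.

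**Figure D4:**
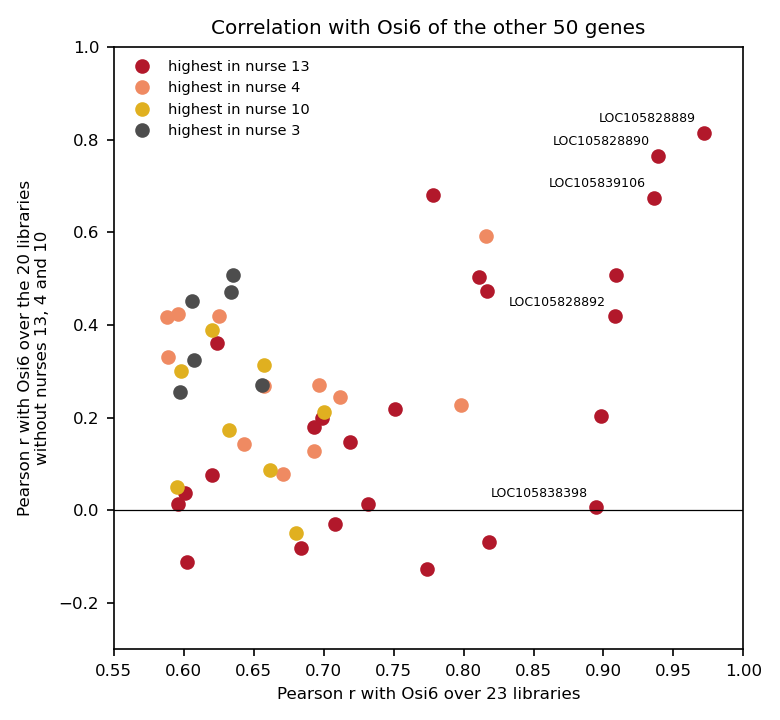
Pearson's r with Osi6 on the log2(RPKM + 1) scale over all 23 libraries (x axis) against r over the 20 libraries without nurses 13, 4 and 10 (y axis) for the other 50 genes, coloured by the library with the highest value. LOC105828889 and LOC105828890 stand high on both axes, while LOC105838398 falls from 0.895 to 0.006.

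Many members, though not most, were scarce outside the libraries in which they rose. The median over the 23 libraries was under 1 RPKM for 24 of the 51 genes, from 1 to 5 for 19 and at least 5 for 8. Medians under 1 RPKM were found in 1.70% of the 8108 genes. A gene with such a median was open to the choice only if it reached 5 RPKM in some library. Members were also chosen to follow Osi6, which was itself high in few libraries. Both steps favour low medians among members, so nothing is read from this contrast. The highest value was under 20 RPKM for 26 members, from 20 to 100 for 15 and at least 100 for 10. The counted length ran from 353 to 6551 bases with a median of 1524, against a median of 1981 over the 7105 genes of the 8108 with a recovered length. Of the 46 members found in the annotation, all 46 were protein coding, as were 99.7% of the matched genes open to the choice. They were spread over 11 chromosomes, with 9 on that of Osi6 and 2 on sequence without a chromosome.

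Foragers and nurses overlapped in all 51 genes, and the limits on the pair share had allowed no gene in which they did not. Nurse 13 lay above every forager in 47 members, against 10.6% of the 8108 genes, nurse 4 in 44 (5.13%) and nurse 10 in 38 (9.53%). Osi6 was highest in these same libraries and the members were chosen to follow it, so nothing is read from these shares. LOC105828889 was at 0.00 to 3.71 RPKM in foragers (median 0.820) and 0.038 to 128 in nurses (median 1.11). LOC105839106 was at 0.00 to 1.10 RPKM in foragers (median 0.236) and 0.00 to 77.9 in nurses (median 0.475). The range of the foragers held 11 of the 14 nurses for LOC105828889 and 9 for LOC105839106.

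In the fit of foragers against nurses over 9622 genes (limma on log2(RPKM + 1), Benjamini-Hochberg adjusted p under 0.05), 35 of the 51 genes had enough expression to be tested. Higher in nurses were 2 of them, LOC105840938 and LOC105831936, against 2.18% of all genes tested, and higher in foragers were 0, against 1.76%. At an unadjusted p under 0.05 there were 8 members higher in nurses (7.59% of all genes tested) and 0 higher in foragers (9.17%). The choice of the set used this contrast, so nothing is read from these counts. For LOC105840938 the foragers averaged 11.5 RPKM with an SD of 3.48 (n = 9) and the nurses 20 with an SD of 8.75 (n = 14). For LOC105831936 the foragers averaged 11.9 RPKM with an SD of 2.64 and the nurses 18.2 with an SD of 5.91. Both were expressed in every library, unlike the genes next to Osi6. No member was called without forager 2, 3, 4, 5 or 8, or without nurse 5 or 13, each left out alone.

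The median difference of the 35 genes was -0.52 log2 units, foragers minus nurses, and all 35 were lower in foragers. The median of all genes tested was 0.03, and 42.5% were lower in foragers. The members were chosen to follow Osi6, whose highest libraries were nurses. That choice favours a negative difference, so nothing is read from this contrast. Without nurses 13, 4 and 10, a setting chosen after the data were seen, the median difference of the 27 members then tested was -0.15, and 0 members were called. In RNA of whole heads, fewer cells of a type and less RNA per cell cannot be told apart.

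**Figure D5:**
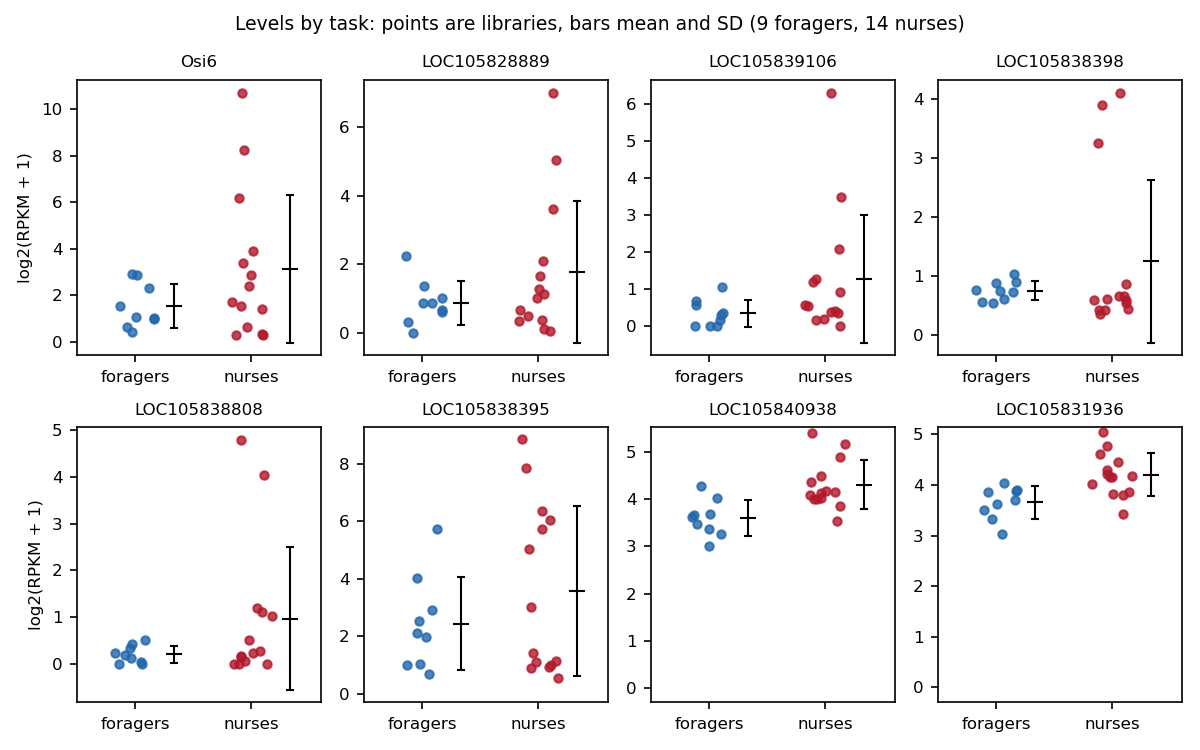
Level on the log2(RPKM + 1) scale (y axis) of 8 of the 51 genes in foragers (blue, n = 9) and nurses (red, n = 14), where each point is a library and bars give the mean and SD. In Osi6, LOC105828889, LOC105839106 and LOC105838398 up to 3 nurses stand far above all foragers, whereas in LOC105840938 and LOC105831936 the nurses are shifted and overlap the foragers.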

How the data were processed

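The deposited file holds RPKM values that the authors computed for 12648 genes in 23 head libraries, all of which were used. The submitters' processing notes name STAR 2.5.0b. The sources used here name no counting tool, genome build or gene models. RPKM divides by gene length and read total, so 1 very abundant gene lowers the others of its library.

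Read totals, lengths and reads were recovered from the steps of the RPKM values for 11084 of the 12223 genes above 0, all 51 members included. Of the recovered values of low genes, 100.0% were whole within 0.05 reads, which the search itself favours. Counts of reads were used only to state depth.

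The members and lists were chosen with earlier results of these data known. Genes named are Osi6, the 12 members with the highest r, those with high single values, those near Osi6 or another member, those at the rank limit, and examples chosen after their values were seen. The gene order came from the RefSeq annotation of assembly ASM1337386v2, whose positions were used only for the order of genes and the overlap of their spans. The lists planned by protein pattern and the promoter motifs were not analysed here.

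Tasks were compared with limma on log2(RPKM + 1) with an intensity trend, two-sided, for genes at 1 RPKM or more in at least 9 libraries. The p-values treat each library as independent. No source says which libraries share a colony, so spread between colonies could not be taken into account. The scripts were tested on simulated data. Alternatives were pseudocounts, filters, scalings, the replicate number as a block, other forms of the rule and leaving out libraries. R 4.3.3, limma 3.58.1, Python 3.11.15, NumPy 2.4.6, pandas 2.3.3 and matplotlib 3.10.9 were used.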

Additional observations from a re-analysis of the deposited data

Results flagged for a closer look

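In 6 of the 51 genes 1 forager lay far from the other foragers, with a gap above Dixon's 95% critical value for 9 samples on the log2(RPKM + 1) scale. Forager 9 was the high one in 4 of them. LOC105828937 was at 11.56 RPKM there, where the next forager had 2.08. LOC105838017 was at 7.78 RPKM (next 2.51), LOC105836896 at 7.25 (next 1.03) and LOC105834828 at 1.65 (next 0.44). Forager 5, the library with the fewest reads (3.68 M), was the low one in the other 2. LOC105828481 was listed at 0.0 RPKM there, where the next forager had 1.49, and LOC105836558 was at 1.64 (next 7.22). Both ends were examined in each gene, and chance flags about 1 in 20 groups. The part of depth in the low values was not tested.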

How the results depend on the processing

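Of the 51 genes, a changed rule kept 45 with a pseudocount of 0.1 or 5, 49 with TMM or median-of-ratios factors, 50 without the limit on the pair share and 38 from nurses alone. It kept 20 by Spearman's rho (median rho 0.425), 27 with no limit on the maximum and 25 with a maximum of 20 RPKM. It kept 3 without the 3 libraries highest in Osi6 (median r 0.25), where 27 of the 51 genes no longer reach 5 RPKM. These 3 were Osi6, LOC105836558 and LOC105828937. From foragers alone it kept 2 (median r 0.345), Osi6 and LOC105828937. Every form of the rule keeps Osi6 itself, so all counts of kept genes include it. Leaving out 1 library kept 27 to 51, the fewest without nurse 13 and next 34 without nurse 4, with a median r of 0.625 to 0.705. With a pseudocount of 5, which shrinks low values, 16 members in nurse 10 and 10 in nurse 3 were at least 1 log2 unit above their median.

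Members called higher in nurses went from 2 to 1 with a pseudocount of 5 or no filter, to 0 to 2 without 1 library, and to 0 without the 3 libraries highest in Osi6. The replicate block on numbers 1 to 9, which leaves out nurses 10 to 14, gave 0 members. The same libraries without the block also gave 0, with 28 members tested. Over all genes that fit without the block called 29 higher in nurses, against 210 in the main fit. Nurse 10 and nurse 13, both among the libraries highest in Osi6, were left out. The cause was not tested. Members called higher in foragers stayed at 0 in every setting run. Libraries numbered alike showed no clear pairing, with a correlation over 0.1 in 4 of 9 pairs (-0.34 to 0.43) and 1 of 9 foragers matched best by its own number. Members low in most libraries rest on few reads there, and a level of 0 says only that no read was counted.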
